A study of Saccharomyces cerevisiae with 8 samples.

Results

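Ethanol fermentation in budding yeast takes the pyruvate made by glycolysis through 2 enzymes. Pyruvate decarboxylase, mainly Pdc1, removes carbon dioxide and leaves acetaldehyde, and alcohol dehydrogenase, mainly Adh1, reduces acetaldehyde to ethanol and returns NAD+ to glycolysis. Gcr1 is a transcription factor that, with Gcr2 and Rap1, activates glycolytic genes in yeast grown on glucose, and both ADH1 and PDC1 are known as genes of that regulon. Binding of Gcr1 at these 2 genes is described here from peak lists of chromatin immunoprecipitation sequencing (ChIP-seq), which counts the DNA fragments recovered with a tagged protein. Peaks were taken in all 4 lists where the centre lay from 1000 bp upstream to 200 bp downstream of the start codon of ADH1 or PDC1, and 6 of the 1064 listed peaks met this rule. ADH1 had 1 peak in each of the 4 lists, and PDC1 had 1 peak in each of the 2 lists of Gcr1(S) and none in those of Gcr1(U).

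The 8 samples were cultures of the haploid laboratory background BY4741, 2 for each of 4 groups. Gcr1(U) and Gcr1(S) are the forms tied by the series' design to processing of the GCR1 intron (unspliced and spliced). Gcr1(U) carried a tandem affinity purification (TAP) tag as GCR1U-TAP::his3MX6 in strain JHY9311, and Gcr1(S) as GCR1S-TAP::his3MX6 in strain JHY9321. Every culture also carried GCR2-5Flag::hphMX6. Each form is represented by a single strain name, so form and strain cannot be told apart. Growth began from an OD600 of 0.5 in YPD with 2% glucose at 30 °C, and cells were taken at 6 h as exponential phase or at 12 h as after the diauxic shift, when yeast passes from glucose to ethanol. Chromatin was fixed with 1% formaldehyde for 25 min and bound on IgG-sepharose.

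The authors deposited 1 peak list per form and time, with 299 peaks for Gcr1(U) and 233 for Gcr1(S) at each time. Within a form, every peak of the 6 h list had an overlapping peak in the 12 h list. Presence or absence of a peak at 6 h and at 12 h is therefore not 2 separate observations. No value per replicate was analysed here, so no difference below has a replicate error, no p-value is given, and the 95% interval in brackets covers counting error in the lists alone. No untagged or input library was analysed here. Values are normalized tag counts, taken here as the reads in a peak window scaled to library size, a scale that the headers do not name. From the grid on which the values fall, 1 unit of Gcr1(U) stood for 1.50 tags at 6 h and 1.42 at 12 h. For Gcr1(S) 1 unit stood for 1.07 and 0.582 tags, so on that reading its 12 h list was the shallowest. The usual window ran from 114 bp in that list to 182 bp in the 6 h list of Gcr1(U).

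A Gcr1 peak was listed well upstream of ADH1 in both forms, and at both times, as was every peak of a form. ADH1 (YOL086C) lies on chromosome XV at 159548 to 160594 on the reverse strand (R64, the assembly that sacCer3 represents). The peak window was XV 161195 to 161377 in Gcr1(U) at 6 h and XV 161175 to 161343 at 12 h, and for Gcr1(S) XV 161175 to 161345 and XV 161202 to 161316. For Gcr1(U) the centres lay 692 bp (6 h) and 665 bp (12 h) upstream of the start codon, and for Gcr1(S) 666 bp and 665 bp. The windows lay in the interval between ADH1 and the next gene, YOL085C, whose near edge is at XV 161673, and overlapped neither gene. The divergent PHM7 starts at XV 162356, and its promoter range held no peak centre in any of the 4 lists. The edge of the 6 h window of Gcr1(U), at XV 161377, did reach into that range.

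The PDC1 site had a similar layout. PDC1 (YLR044C) lies on chromosome XII at 232390 to 234081, also on the reverse strand. The Gcr1(S) window was XII 234604 to 234774 at 6 h and XII 234625 to 234739 at 12 h, with centres 608 and 601 bp upstream of the start codon. The next gene upstream, STU2 on the same strand, has its near edge at XII 235037, so these windows too lay between genes. At glycolytic promoters, for comparison, the centres lay between 328 bp (GPM1, phosphoglycerate mutase, Gcr1(U) at 12 h) and 641 bp (CDC19, pyruvate kinase, same list) upstream. The ADH1 centre was farther from its start codon than any of these, and the PDC1 centre lay inside their range.

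**Figure D1:**
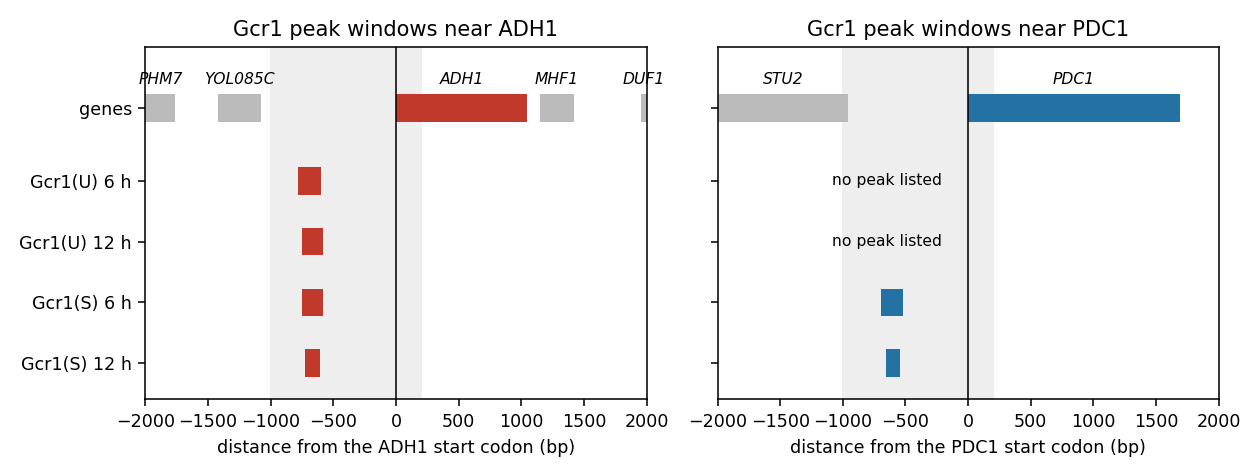
Peak windows of the 4 lists (coloured bars) by distance in bp from the start codon of ADH1 (left) and PDC1 (right), with neighbouring genes above and the range used to choose peaks shaded. The ADH1 windows lie between 581 and 783 bp upstream, and the PDC1 windows, listed for Gcr1(S) only, between 523 and 693 bp upstream.

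Both sites stood alone. No list had a peak over the coding region of ADH1 or PDC1. The nearest other peak to the ADH1 start codon was 37.4 kb away in both lists of Gcr1(U) and 42.6 kb away in both of Gcr1(S). For PDC1 in Gcr1(S) it was 19.1 kb away at 6 h and 19.2 kb at 12 h, at the tRNA gene YNCL0004C. The nearest tRNA gene, a frequent class of site in these lists, was 47.4 kb from the ADH1 peaks and 19.7 kb from the PDC1 peaks.

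ADH1 was among the strongest sites of every list. For Gcr1(U) it had 4497 tags at 6 h (4391 to 4606) and 1706 at 12 h (1638 to 1775). For Gcr1(S) it had 2099 tags at 6 h (2013 to 2187) and 2750 at 12 h (2618 to 2889). The Gcr1(U) value at 6 h was the highest of the 4 and the Gcr1(U) value at 12 h the lowest, with both Gcr1(S) values in between and no overlap of the counting intervals. By tags ADH1 ranked 2 and 3 of 299 peaks in Gcr1(U) at 6 h and 12 h, and 4 of 233 in Gcr1(S) at both times. The only peak above it in Gcr1(U) at 6 h was the one inside EFM4, a lysine methyltransferase gene, with 6110 tags. The peak upstream of CIS1 joined that one in Gcr1(U) at 12 h, and it and the peak inside RAD34 did so in both lists of Gcr1(S). In all 4 lists ADH1 was the highest of the 21 (Gcr1(U)) or 17 (Gcr1(S)) peaks on chromosome XV.

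PDC1 was a middling site of Gcr1(S). It had 486 tags at 6 h (445 to 530) and 539 at 12 h (480 to 601), and ranked 71 and 50 of 233 peaks. These values are 1.13 and 2.15 times the median peak of their lists, against 4.90 and 11.0 times for ADH1. ADH1 thus had 4.32 times the tags of PDC1 at 6 h and 5.11 times at 12 h.

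**Figure D2:**
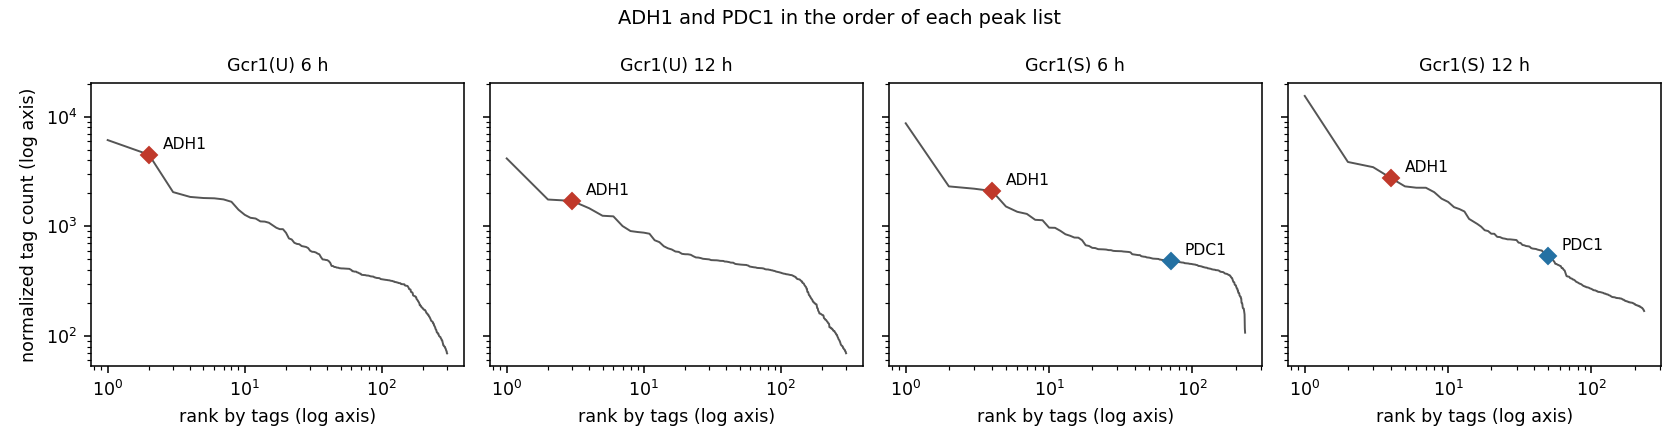
Normalized tag count against rank for every peak of each list (both axes logarithmic), with ADH1 and PDC1 marked. ADH1 ranks from 2 to 4 in the 4 lists, and PDC1 ranks 71 and 50 in the lists of Gcr1(S).

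The peak caller's other measures gave ADH1 less extreme ranks. Its fold over local background, the ratio of tags in the window to tags in the surrounding region, was 8.18 at 6 h and 6.55 at 12 h for Gcr1(U), and 7.33 and 7.84 for Gcr1(S). By this measure, in that order, ADH1 ranked 25, 42, 16 and 19. PDC1 had folds of 2.77 at 6 h and 4.02 at 12 h, above the lowest listed value of the 2 lists (2.01 and 2.00). The focus ratio is the share of a peak's tags that lie on the strand and side expected of a single bound point. It was 79.3% and 85.0% at ADH1 in Gcr1(U) and 88.6% and 88.5% in Gcr1(S), at 6 h and 12 h, and 73.4% and 77.8% at PDC1. The list medians were between 66.3% and 69.2%, so both sites lay above the typical peak.

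Setting the forms side by side at 6 h asks whether they load the fermentation promoters alike during growth on glucose. At ADH1 the tags of Gcr1(S) were 0.467 times those of Gcr1(U) (0.445 to 0.489). An interval below 1 was found at 25.3% of the 162 peaks shared at 6 h, and at 38.3% when ratios were divided by the median shared ratio of 1.28. Only 1 shared peak had a smaller ratio than ADH1, and it was mitochondrial; of the 137 shared nuclear peaks ADH1 had the smallest. The 8 glycolytic promoters with a peak in both forms ranged from 0.475 (FBA1, aldolase) to 1.07 (GPM1). The ratio of ADH1 was smaller than that of 7 of the 8 beyond counting error, and could not be separated from that of FBA1. By fold over local background this order turned, with 6 of the 8 below the 0.896 of ADH1 and only PGK1 and CDC19 above it.

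At 12 h the order of the forms at ADH1 was reversed. The ratio of Gcr1(S) to Gcr1(U) was 1.61 (1.51 to 1.72), or 2.44 after dividing by the median shared ratio of 0.660. Centring between forms leans on tRNA peaks, which were 81 of the 162 peaks present in all 4 lists. An interval above 1 was found at 31.9% of the 163 shared peaks, or 44.8% after that division. By tags the ADH1 ratio was smaller than that of each of the 8 glycolytic promoters beyond counting error. These ran from 1.82 at CDC19 to 3.50 at ENO2, an enolase gene. By fold over local background 7 of the 8 were larger, and CDC19 (1.19) was level with ADH1 (1.20). The ratio of the 12 h form ratio to the 6 h one was 3.45 (3.19 to 3.74) at ADH1, and 6.70 after centring. Over the 162 peaks present in all 4 lists its median was 0.563, and 18 peaks had a larger value than ADH1. At the glycolytic promoters it ran from 2.11 to 6.25, with a median of 4.30. The 25 mitochondrial peaks ran from 1.99 to 9.74, with a median of 3.56, so a value like that of ADH1 was not particular to glycolytic genes. At the 81 shared tRNA peaks it ran from 0.251 to 0.619, and at the 47 other nuclear peaks from 0.292 to 3.07.

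**Figure D3:**
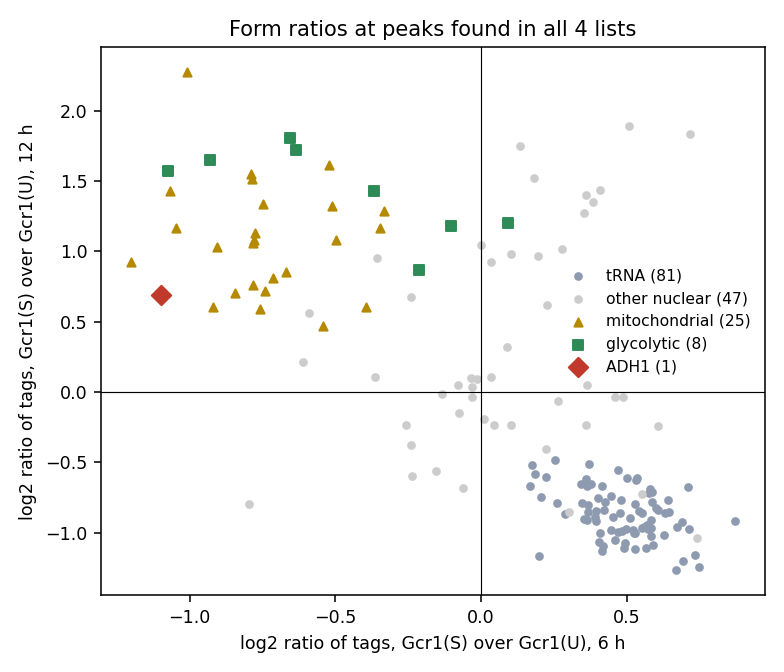
Log2 ratio of tags in Gcr1(S) over Gcr1(U) at 6 h (x axis) and 12 h (y axis) for the 162 peaks found in all 4 lists, as normalized by the authors. ADH1 lies at -1.10 and 0.69, at the upper left with mitochondrial and most glycolytic peaks, and the tRNA peaks lie in the lower right.

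Over time the forms moved in opposite directions at ADH1. In Gcr1(U) the 12 h value was 0.379 times the 6 h value (0.362 to 0.397), and an interval below 1 was found at 21.7% of the 299 peaks, or 25.8% after centring. Of the 272 nuclear peaks only FBA1, at 0.341, had a smaller ratio by tags. By fold over local background 17 nuclear peaks had a smaller ratio than the 0.801 of ADH1, 6 of the 8 glycolytic promoters among them. PFK2, which encodes a phosphofructokinase subunit, and ENO2 could not be separated from ADH1 by counting error. In Gcr1(S) the 12 h value of ADH1 was 1.31 times the 6 h value (1.23 to 1.40), and 2.20 times after centring on the median ratio of 0.595. Centring over time in Gcr1(S) also leans on tRNA peaks, which were 118 of the 233. Their median was 449.7 tags at 6 h and 220 at 12 h. An interval above 1 was found at 27.9% of the 233 peaks, and at 45.5% after centring. The ADH1 ratio lay below those of all 9 glycolytic promoters of Gcr1(S) beyond counting error, which ran from 1.48 to 2.31.

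PDC1 had a ratio of 12 h to 6 h of 1.11 in Gcr1(S) (0.959 to 1.28), which was not separable from 1 at this depth. After centring it was 1.86 (1.61 to 2.14), and per bp of window 1.65 (1.43 to 1.90), so the call depends on the scale. By tags all 9 glycolytic promoters had larger ratios than PDC1 beyond counting error. By fold over local background PDC1 (1.45) lay inside their range of 1.11 to 2.20, above PFK2 and CDC19. The ratio of ADH1 was 1.18 times that of PDC1 by tags (1.01 to 1.38) and 0.737 times by fold over local background, so the order of these 2 sites depends on the measure. TPI1, triose phosphate isomerase, also has a peak in the lists of Gcr1(S) and not in those of Gcr1(U). It had 492 tags at 6 h and 907 at 12 h, against 486 and 539 at PDC1.

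**Figure D4:**
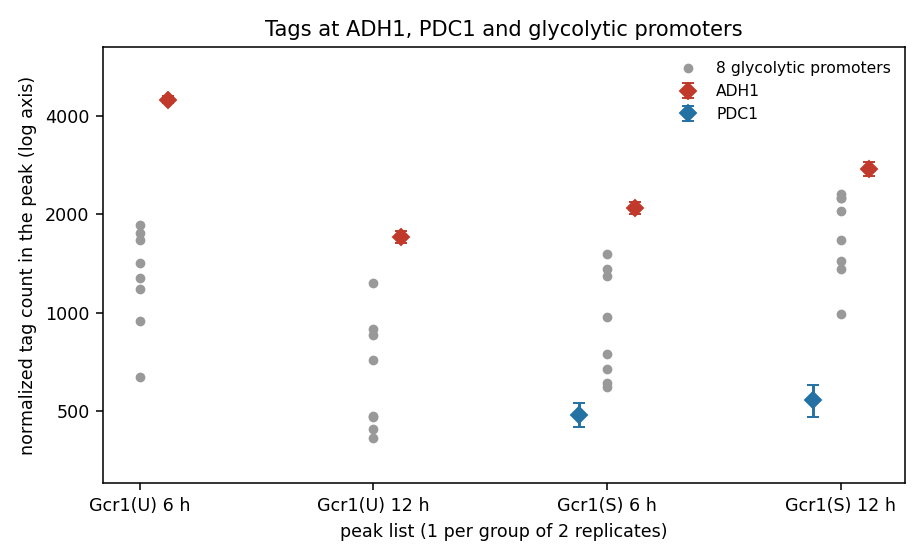
Normalized tag count (log axis) at ADH1, PDC1 and the 8 glycolytic promoters with a peak in all 4 lists, by list; bars are 95% Poisson intervals for counting error. ADH1 lies above all 8 glycolytic promoters in each list, and PDC1, listed for Gcr1(S) only, lies below all 8.

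Set against the glycolytic promoters of its own list, a comparison that no scaling of a library can move, ADH1 was highest by tags in Gcr1(U) at 6 h. It had 3.34 times the median tags of the 8 promoters there and 2.84 times at 12 h, while the multiples for Gcr1(S) were 2.44 and 1.48. Over the strongest of the 8 the multiple was 2.43 in Gcr1(U) at 6 h and 1.19 in the 12 h list of Gcr1(S). In the lists of Gcr1(S), PDC1 had 0.565 times the median of the 8 at 6 h and 0.290 times at 12 h. By tags ADH1 was thus a smaller multiple of the glycolytic median at 12 h than at 6 h in both forms, and so was PDC1 in Gcr1(S). By fold over local background the order of the times turned at ADH1 in Gcr1(U). Its fold was 8.18 against a glycolytic median of 6.245 at 6 h, and 6.55 against 3.395 at 12 h.

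The differences at ADH1 were smaller by fold over local background than by tags, though in the same directions. The form ratio was 0.896 at 6 h and 1.20 at 12 h, and the ratio of 12 h to 6 h was 0.801 in Gcr1(U) and 1.07 in Gcr1(S). Dividing tags by fold gives the local level that the peak caller's fold implies. At ADH1 this was 549.8 tags at 6 h and 260.4 at 12 h for Gcr1(U), and 286 and 351 tags for Gcr1(S). These values ranked 2, 3, 1 and 2 among the nuclear peaks of their lists and were 5.06, 2.61, 1.91 and 3.54 times the nuclear median. The implied local level and the peak tags differed in the same direction in all 4 comparisons, and between times in Gcr1(U) the local ratio at ADH1 was 0.474, against a nuclear median of 0.966. At the 8 glycolytic promoters it lay between 0.530 and 1.01. How far reads of the peak itself enter the local region was not tested.

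At PDC1 the 2 measures differed the other way. Its implied local level in Gcr1(S) was 175 tags at 6 h and 134 tags at 12 h, below those of all 9 glycolytic promoters, and its fold over local background at 12 h was 1.45 times that at 6 h.

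**Figure D5:**
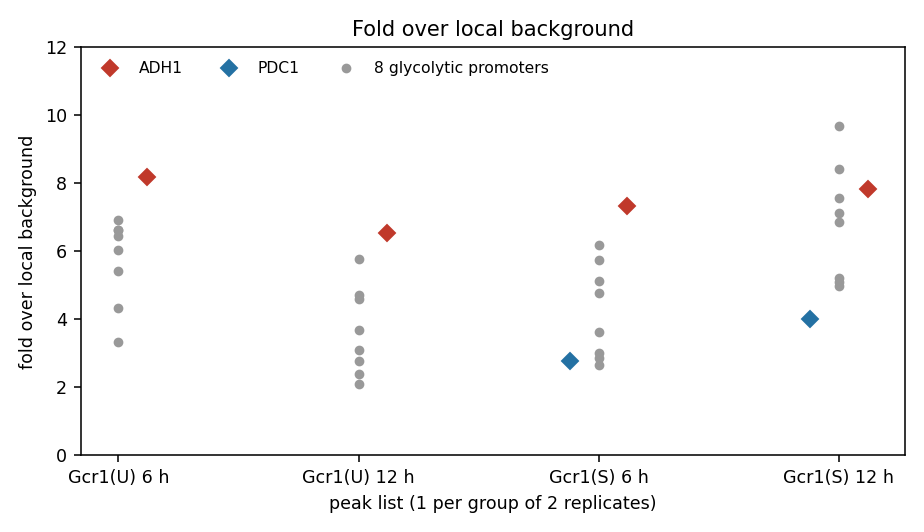
Fold over local background given by the peak caller for ADH1, PDC1 and the 8 glycolytic promoters in each list. ADH1 stays between 6.55 and 8.18, above all 8 promoters except in Gcr1(S) at 12 h, while PDC1 lies at 2.77 and 4.02.

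The pile of reads at ADH1 was dense. The 6 h window of Gcr1(U) held 37.1 tags per bp, or 18.6 for each position and strand. The other 3 windows held between 6.63 and 7.20 for each position and strand. PDC1 had 1.54 and 1.37. The labels give 15 cycles of PCR and name no molecular identifiers, so copies of 1 fragment cannot be told from separate fragments, and the true error at ADH1 may be larger than its interval.

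PDC1 showed no listed peak in Gcr1(U), although by tags as normalized its level in Gcr1(S) was inside the range that the Gcr1(U) lists report. The 486 tags at 6 h are 6.98 times the lowest value listed for Gcr1(U), and 259 of its 299 peaks had fewer. At 12 h the 539 tags are 7.72 times the lowest value, and 277 of 299 had fewer. Divided by the median form ratio of shared peaks, the PDC1 values would correspond to 380 and 816 tags on the scale of Gcr1(U). The shared medians were 1.28 at 6 h and 0.660 at 12 h, while those of the 8 glycolytic promoters were 0.710 and 2.83. The glycolytic divisor would raise the 6 h equivalent and lower the 12 h one, so both depend on the peaks that set the divisor. By fold over local background PDC1 lay nearer the limit, at 1.39 times the lowest fold listed for Gcr1(U) at 6 h and 2.00 times at 12 h. A peak without a counterpart was common, since 30.5% of the Gcr1(S) peaks at 6 h and 30.0% at 12 h had none in Gcr1(U). Among these PDC1 ranked 8 of 71 at 6 h and 12 of 70 at 12 h by tags, and 23 and 16 by fold over local background. The tags of Gcr1(U) at PDC1 were not analysed here, so a ratio of forms has no value, and an unlisted site may still hold tags that did not meet the peak caller's criteria. The nearest Gcr1(U) peak lay 19.2 kb from the PDC1 start codon at both times, at YNCL0004C.

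The other genes examined in ethanol metabolism had no peak in their promoter range. Of 8 genes of ethanol production, ADH1 alone had one in Gcr1(U), and ADH1 and PDC1 had one in Gcr1(S). PDC5 and PDC6, the other pyruvate decarboxylase genes, ADH3, which encodes the mitochondrial alcohol dehydrogenase, ADH4, ADH5 and SFA1 had none. None of 8 genes of ethanol and acetate use had a peak in its promoter range in any list. These include ADH2, the glucose-repressed alcohol dehydrogenase that oxidises ethanol and a close paralog of ADH1, the aldehyde dehydrogenase genes ALD2 to ALD6 and the acetyl-CoA synthetase genes ACS1 and ACS2. The nearest peak to ADH2 was at least 45.4 kb from its start codon. The 5 regulators examined (PDC2, THI2, THI3, ADR1 and CAT8) had none either. Together 1 of 21 genes had a peak in Gcr1(U) (4.76%) and 2 of 21 in Gcr1(S) (9.52%). The genes with a peak were ADH1 and PDC1 alone, chosen with earlier results of these data known, so these shares follow from that choice. Among all 6002 nuclear protein-coding genes the share was 3.45% in both lists of Gcr1(U). In those of Gcr1(S) it was 3.13% (6 h) and 3.08% (12 h). The count is near this background in Gcr1(U), and in Gcr1(S) it differs by PDC1 alone. At so low a share most genes have no peak, so the lack of one does not set the other listed genes apart.

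The peaks whose 4 values followed those of ADH1 most closely were mitochondrial. By Euclidean distance of the centred log2 values over the 4 lists, the 3 nearest of 161 peaks were a site in the 21S rRNA gene (0.14), one inside COX1 (0.18) and a second site in the 21S rRNA gene (0.18). The first had 1105 tags at 6 h and 466 at 12 h for Gcr1(U), and 584 and 711 for Gcr1(S). Among the nuclear peaks, a restriction added after these values were seen, the nearest were those at SSA1, an Hsp70 gene, with EFB1 (0.51), at GPD1, glycerol-3-phosphate dehydrogenase (0.57), and at FBA1 (0.68). For PDC1, whose likeness rests on the 2 values in Gcr1(S), the peaks with the nearest ratios of 12 h to 6 h were those at CSL4 (1.12), in YGR050C (1.09) and at YLR462W (1.09).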

How the data were processed

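The authors summarised each of 4 groups of 2 ChIP-seq samples in 1 peak list. The submitters' processing notes name the build sacCer3 and, with no role for any tool, HOMER, bedtools, Picard 2.92, BWA 0.7.15, FastQC 0.10.1 and bcl2fastq 1.8.2. How replicates were combined, duplicates treated and the lists of 1 form matched between times is not stated in the labels or file headers. Per the file headers, the deposited values per peak come from HOMER findPeaks: a normalized tag count (a signal scaled to library size), a score, the fold (ratio) over local background, the focus ratio (a fraction), a p-value against the local background and a clonal fold change. The p-value and the clonal fold change that the authors deposited were not used, and the score served to halve lists and to find the grid. The fold and focus ratio are the authors' values.

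Tags were recovered from the value grid, taking 1 step as 0.5 tags. All values of each list lay within 0.05 units of a step, where chance gives from 11.6% to 30.0%. Ratios used peaks overlapping by at least 1 bp, with exact binomial intervals, and ratios of ratios had Wald intervals, checked on simulated data. Exact Poisson intervals stand beside single values. The lists hold no value per replicate, so no condition was tested. Gene positions came from the RefSeq table of R64, with the strand read from the systematic name. Motif searches were planned but no genome sequence was used. ADH1, PDC1 and all gene lists were chosen with earlier results of these data known; the text names these lists' genes and, by a fixed distance, the 3 peaks most like each member. Alternatives were centring, tags per bp, fold over local background, the grid step, the overlap, the assignment range and the upper 50% of peaks by score. Python 3.11.15, pandas 2.3.3, NumPy 2.4.6 and SciPy 1.17.1 were used.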

Additional observations from a re-analysis of the deposited data

Results flagged for a closer look

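The form ratio at ADH1 differed between the times. The ratio of the 12 h to the 6 h value was 3.45 (3.19 to 3.74, Wald interval from 4 tag counts), which compares pooled lists for counting error and has no replicate error. The same ratio had a median of 4.30 at 8 glycolytic promoters and 3.56 at 25 mitochondrial peaks, so it was not particular to ADH1.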

How the results depend on the processing

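The 4 ratios at ADH1 and the ratio of its form ratios kept their direction and an interval that excluded 1 under both kinds of centring, per bp, with 1 grid step as 1 tag and with an overlap of 50% of the shorter window. By fold over local background, which has no interval, they kept their direction but lay nearer 1: 0.896 for the forms at 6 h, 1.20 at 12 h, 0.801 over time in Gcr1(U), 1.07 in Gcr1(S), and 1.34 for the ratio of form ratios. The place of ADH1 below glycolytic promoters at 6 h and over time in Gcr1(U) was lost by that measure, as was that of PDC1 below all 9. The ratio over time at PDC1 spanned 1 as normalized. Its interval lay above 1 at 1.86 after centring on all shared peaks, 1.99 on nuclear ones, 1.65 per bp and 1.11 with 1 grid step as 1 tag, where more tags narrow the interval, and by fold over local background it was 1.45. With centres limited to 500 bp upstream, 0 members and 0 of the 21 ethanol genes had a peak in any list, since both sites lie farther out. The single nearest start codon added ALD3 in Gcr1(U), for 2 of 21 genes at each time. No paired analysis was possible because the lists hold no value per replicate, and for the same reason no replicate could be left out. Depth limits PDC1 most, with 522 tags at 6 h and 313 at 12 h.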

Other observations

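One peak of Gcr1(U) lay inside ALD3, an aldehyde dehydrogenase gene at XIII 599352 to 600872, and not in its promoter. Its centre was 810 bp downstream of the start codon at 6 h and 780 bp downstream at 12 h. The peak had 162 tags at 6 h and 165 at 12 h, ranks 213 and 190 of 299. Its folds over local background, 2.07 and 2.10, were close to the lowest listed for Gcr1(U), 2.00 and 2.01.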
